A study of Schizosaccharomyces pombe with 2 samples.

Results

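The cell wall glucan synthases of fission yeast are the enzymes that make the structural polymers of its wall, and 9 genes for them were examined on an array of untreated cells and an array of cells given a nitric oxide donor. The genes were chosen by the gene symbol that the platform annotation gives a probe set: ags1, mok11, mok12, mok13 and mok14 for alpha-glucan synthases, and bgs1, bgs2, bgs3 and bgs4 for beta-glucan synthases. All 9 were found, each with 1 probe set, among 2896 Schizosaccharomyces pombe genes with a named probe set. The rule itself used gene symbols and no signals, but the members were chosen with earlier results of these data known.

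The study measured RNA of log-phase S. pombe on 2 Affymetrix Yeast Genome 2.0 arrays, with 1 array per group. The untreated array held RNA of cells given no compound. The treated array held RNA of cells given 0.5 mM DETA NONOate, which releases nitric oxide slowly in solution, for 2 h. Both cultures were grown at 30 °C in the rich medium YES, and the labels name no strain or genotype, nor a time for the untreated culture.

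The fission yeast wall is a layer of alpha-1,3-glucan and branched beta-1,3-glucan with an outer coat of galactomannan. Synthases that span the plasma membrane extrude the glucans, and the beta-glucan enzymes work under the small GTPase Rho1. Growing cells depend on Ags1, also called Mok1, for alpha-glucan, and on Bgs1, Bgs3 and Bgs4 for beta-glucan at the growing tips and the septum. Other synthases build the spore wall after meiosis, among them Bgs2 and the Ags1 relatives Mok12, Mok13 and Mok14. Accordingly ags1, bgs1, bgs3 and bgs4 are called the vegetative members here, and bgs2 and mok12 to mok14 sporulation members. The gene mok11 is counted with the sporulation members by the selection rule, not for a role given above. These names stand for roles and not for the state of the cells measured. In untreated log-phase cells the sporulation members had signals from 336 to 949, far above the background level given below.

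None of the 9 synthase genes differed 2-fold between the arrays. The count at 2-fold or more was 0 of 9 in the higher and 0 of 9 in the lower direction, against 2.25% and 2.04% of the 2889 measured S. pombe genes. The 4 vegetative members had slightly lower signals on the treated array, with a median log2 ratio of −0.10, and bgs1 changed sign under other scalings. Of the 5 sporulation members 4 had higher signals, with a median over the 5 of 0.22, and mok13 stood furthest out at 1.55-fold higher. With 1 array per group none of these differences can be tested, and the precision is limited by the number of arrays.

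Only genes with a named S. pombe probe set were considered, 2896 where RefSeq lists 5124 protein-coding genes. Another 5177 probe sets without a gene name were left out. Of the 2896, a gene counted as measured when its signal passed the background level on at least 1 array, as 2889 did. That level was the 95th percentile of the 2601 Saccharomyces cerevisiae probe sets of the array, for which this RNA holds no intended target, and it was 7.99 for untreated and 8.76 for treated cells. A log2 ratio is the treated minus the untreated log2 signal. The 63 probe sets for RNAs added at labelling or hybridization had log2 ratios with an SD of 0.24, from −0.76 to 0.42. Among the 32 of them with a mean signal of at least 200, as all synthase genes had, the SD was 0.14 and the ratios ran from −0.31 to 0.34. Below, the SD of the added controls is the 0.24 of all 63. The ratios of ags1, mok14 and bgs2 were within 0.24 but past 0.14. Both spreads leave out differences between cultures. In control transcripts of S. pombe itself, the log2 ratio of the 5′ part minus that of the 3′ part ran from −0.38 for rip1 to 1.35 for gpd3, and the part of RNA quality in the synthase ratios was not tested.

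Among the vegetative members, ags1 (SPCC1281.01), the essential alpha-1,3-glucan synthase, had a signal of 2673 untreated and 2303 treated. Its log2 ratio of −0.22 was the lowest of the 9 genes, a signal 13.9% lower, and 26.4% of all measured genes had a lower ratio still. The ratio was within the SD of the added controls.

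For bgs1 (SPBC19G7.05c), whose product makes the linear beta-glucan of the primary septum, the signals were 2565 untreated and 2562 treated. The arrays thus gave nearly the same value, and the log2 ratio of −0.0019 became 0.0033 with the median of all genes subtracted, 0.018 after quantile normalization and 0.048 with a loess trend removed. For bgs4 (SPCC1840.02c), which encodes the main beta-glucan synthase of cell integrity, the signals were 3474 untreated and 3285 treated. Its log2 ratio of −0.08 meant a signal 5.42% lower on the treated array. For bgs3 (SPAC19B12.03), the remaining beta-glucan synthase gene of growing cells, the signals were 1884 and 1736, with a log2 ratio of −0.12. All 4 vegetative members lay within the SD of the added controls, and their log2 ratios spanned 0.21.

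**Figure D1:**
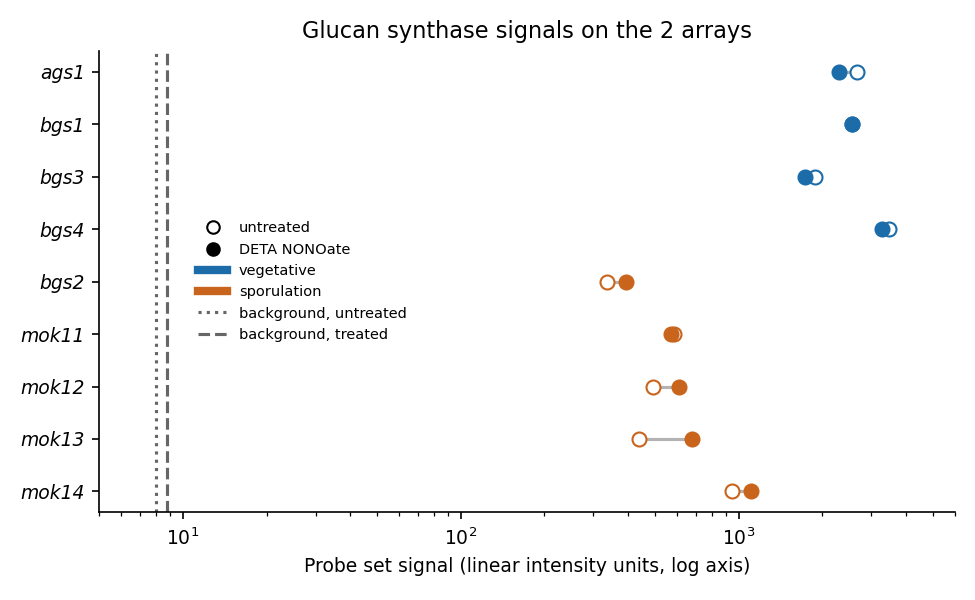
Probe set signal (linear intensity units on a log axis) of each glucan synthase gene on the untreated array (open points) and the DETA NONOate array (filled points), with the background level of each array as vertical lines. Every point lies far above background, and the widest gap between arrays on the log axis is that of mok13, from 437 to 678. Signals of different probe sets cannot be ranked against each other.

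Among the sporulation members, mok13 (SPBC16D10.05), an alpha-glucan synthase gene of the spore wall, had a signal of 437 untreated and 678 treated. Its log2 ratio of 0.63, or 1.55-fold higher on the treated array, was the furthest from 0 of the 9. In signal units ags1 differed more, by −370 against 241 for mok13. The gene mok13 was also the single synthase gene past 1.5-fold, a size reached by 5.68% of all measured genes in the higher and 6.61% in the lower direction. Of the 2889 measured genes, 141 (4.88%) had a higher ratio than mok13. Its ratio was 2.67 times the SD of the added controls and outside the range of their brighter probe sets. Among all 63 controls the highest ratio was 0.42, but the lowest, −0.76, was further from 0 than that of mok13.

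The other alpha-glucan synthase genes of this set differed less. For mok12 (SPBC32H8.13c), which acts in spore wall formation, the signals were 491 untreated and 608 treated. Its log2 ratio was 0.31, a signal 1.24-fold higher on the treated array, and 15.1% of all measured genes had a higher ratio. For mok14 (SPCC63.04), also a gene of the spore wall, the signals were 949 and 1104. The log2 ratio was 0.22, and 22.1% of all genes had a higher one. The ratio of mok12 was over the SD of the added controls but inside the range of their brighter probe sets, while that of mok14 was within the SD.

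In mok11 (SPAC1527.01), a further relative of ags1, the signals were 587 untreated and 570 treated. Its log2 ratio of −0.04 went with the vegetative members rather than with mok12, mok13 and mok14, and it was 0 after quantile normalization. For bgs2 (SPAC24C9.07c), whose beta-glucan synthase matures the spore wall, the signals were 336 untreated and 393 treated. The log2 ratio was 0.22, a signal 1.17-fold higher on the treated array. This value lay within the SD of the added controls.

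**Figure D2:**
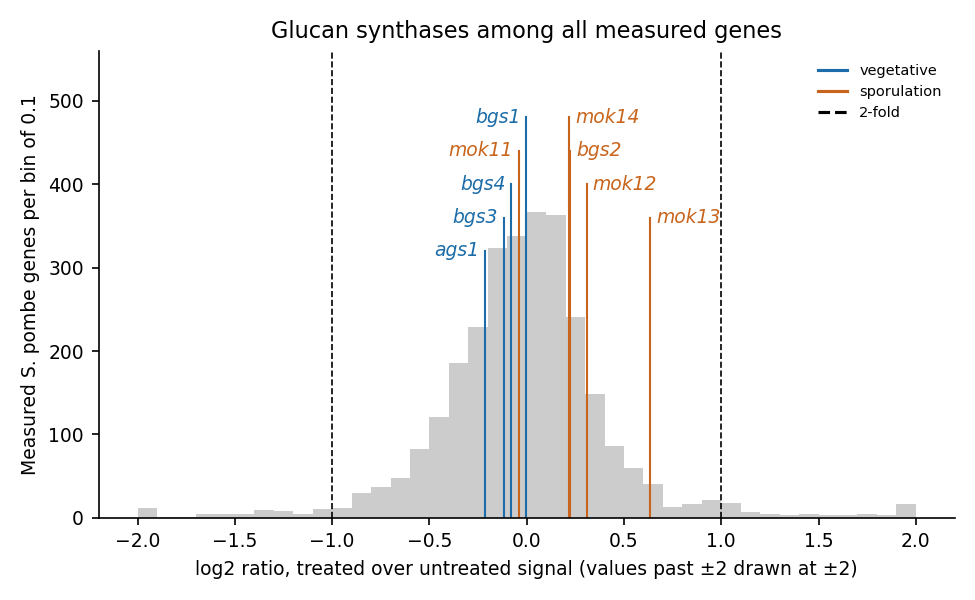
Histogram of log2 ratios (treated over untreated signal) of the 2889 measured S. pombe genes in bins of 0.1, with each glucan synthase gene as a coloured line and 2-fold as dashed lines. The synthase genes lie between −0.22 and 0.63, inside the dashed lines, with mok13 furthest out.

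In descending order of log2 ratio the genes were mok13, mok12, bgs2, mok14, bgs1, mok11, bgs4, bgs3 and ags1. The step from mok13 to mok12, 0.33, was the widest of the 8 steps between neighbours in this order. It was the only 1 of them over the SD of the added controls. The next widest, 0.22, separated mok14 from bgs1. With 1 array per group, no step has a spread between cultures to be read against, so the order describes these arrays only.

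Vegetative and sporulation members overlapped in their ratios through mok11 alone. The other 4 sporulation members lay above every vegetative member, and mok11 lay inside the vegetative range. The step of 0.22 from mok14 to bgs1 that separates them was under 0.24, the SD of all added controls. It was over the 0.14 of the brighter ones. The difference of the medians, vegetative minus sporulation, was −0.32 on the log2 scale. Without mok13 it was −0.32 as well, since the sporulation median was then also 0.22. That median lies between bgs2 and mok14, both at 0.22, so it could hardly move and says little of the weight of mok13. Over all measured genes the median was −0.01 and the central 95% of ratios lay between −0.90 and 0.95. Of all measured genes 49.2% had a ratio above 0, against 4 of the 5 sporulation members and 0 of the 4 vegetative ones.

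Within the alpha-glucan family, the log2 ratios of mok13, mok12 and mok14 exceeded that of ags1 by 0.85, 0.52 and 0.43, and that of mok11 by 0.18. In the beta-glucan family, that of bgs2 exceeded those of bgs3, bgs4 and bgs1 by 0.34, 0.30 and 0.23. The ratios of the 5 alpha-glucan synthase genes thus ranged over 0.85, with mok13 at the upper end, and those of the 4 beta-glucan ones over 0.34. Without mok13 the alpha-glucan range was the 0.52 between mok12 and ags1. The synthases of a family are related in sequence. Their probe sets carry the plain suffix of the platform rather than a suffix for shared probes, but hybridization between relatives was not tested.

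The ratios were also set beside those of all measured genes of like signal. Mean signals of the sporulation members spanned 365 to 1027, and the 1122 measured genes in that range had a median log2 ratio of −0.02 with a central 95% from −0.81 to 0.83. In this range 41 genes (3.65%) had a higher ratio than mok13 and 151 (13.5%) a higher ratio than mok12. Mean signals of the vegetative members spanned 1810 to 3379, and the 270 genes there had a median of −0.00033. A lower ratio than that of ags1 was found for 81 of them (30.0%). With a loess trend of ratio on signal removed, the difference of the vegetative and sporulation medians was −0.32.

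**Figure D3:**
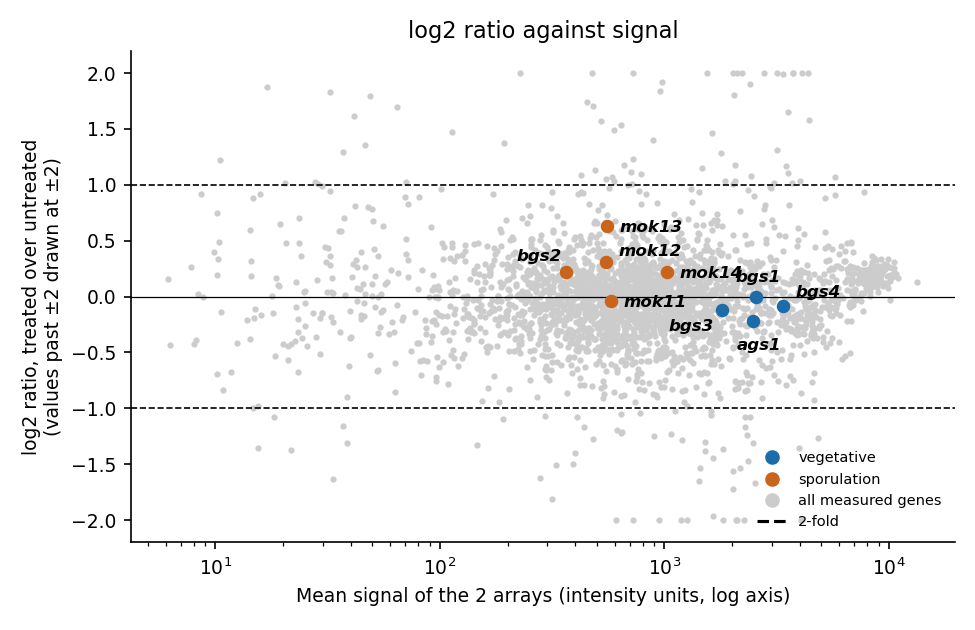
log2 ratio (treated over untreated) against the mean signal of the 2 arrays on a log axis, for all measured S. pombe genes (grey) and the glucan synthase genes (blue vegetative, orange sporulation). The vegetative genes sit at or just below 0 and the sporulation genes, apart from mok11, above it, all within the cloud of genes of like signal.

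The genes that lie next to the synthase genes gave no ratio past 2-fold. Over all measured genes 2.25% were 2-fold higher and 2.04% lower, so none among so few is close to that share. Of 18 nearest protein-coding neighbours, 11 were measured, with log2 ratios from −0.17 to 0.35. The rest have no ratio, for lack of a named probe set or of signal above background. Of 2896 genes with a named probe set 2889 passed background, so a missing ratio is no sign of low signal. The gene gas1, for a beta-1,3-glucanosyltransferase that elongates the glucan made by the synthases, neighbours bgs3, and their log2 ratios were −0.17 and −0.12. Beside mok13, dna2 and zrt1 had log2 ratios of −0.08 and 0.23, both under that of mok13. The neighbours of mok12 are the actin gene act1 and alg2, with log2 ratios of 0.19 and 0.21 beside 0.31 for mok12. No measured neighbour thus differed by as much as mok13.

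Around the synthases, the wall pathway was described by 7 lists with 103 distinct measured genes. Of these 1 was at least 2-fold higher and 2 were at least 2-fold lower, where the shares over all measured genes were 2.25% and 2.04%, so the lists held no more such genes than the background. In the list of synthase partners and regulators, the median log2 ratio over 16 measured genes was 0.01, and 0 of them were 2-fold higher and 1 was 2-fold lower. That gene was cwg2 (SPAC2E1P5.04c), which encodes a subunit of the enzyme that attaches a lipid to Rho1, and which beta-glucan synthase activity requires. Its signals were 397 untreated and 189 treated, or 2.10-fold lower. By comparison rho1 itself had signals of 3472 and 3424 and a log2 ratio of −0.02. Next in size was smi1, whose relative in budding yeast regulates glucan synthesis, with a log2 ratio of −0.46. Thus cwg2 was the gene of this list past 2-fold, whereas rho1, bgs1, bgs3 and bgs4 lay within the SD of the added controls.

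No gene of the wall sensor and Pmk1 MAP kinase list, the pathway that responds to wall damage, differed 2-fold (0 of 12, median −0.01). The kinase gene mkh1 at the head of this cascade had a log2 ratio of 0.58, and pmp1, for the phosphatase that switches Pmk1 off, and rnc1, for an RNA-binding protein that stabilises the pmp1 message, had −0.54 and −0.53. Among 13 genes of glucan remodelling and hydrolysis 0 differed 2-fold, and the median was 0.06. Their largest ratios were 0.54 for the exoglucanase gene exg3, 0.44 for eng1, whose endoglucanase separates daughter cells, and −0.33 for gas5, for a glucanosyltransferase like Gas1. With so few genes listed, a count of 0 is close to what the share over all measured genes gives.

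The other wall polymers were similar in size of difference. Of 26 galactomannan and sugar donor genes 0 differed 2-fold, with a median of 0.03, and the largest log2 ratios were 0.93 for the epimerase gene gal10, 0.89 for the galactosyltransferase gene gmh1 and −0.54 for the mannosyltransferase gene omh3. In the list for the chitin synthase family and chitosan 0 of 4 did, with a median of 0.03. Its genes chs1, chs2 and cda1 had log2 ratios of 0.41, −0.37 and 0.14. For attachment of the lipid anchor that holds many wall proteins, 0 of 12 genes differed 2-fold, with a median of 0.09 and largest ratios of −0.49 for gpi1, 0.45 for gpi12 and 0.42 for gpi8. In lists of these sizes a count of 0 is close to the shares over all measured genes, 2.25% higher and 2.04% lower.

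**Figure D4:**
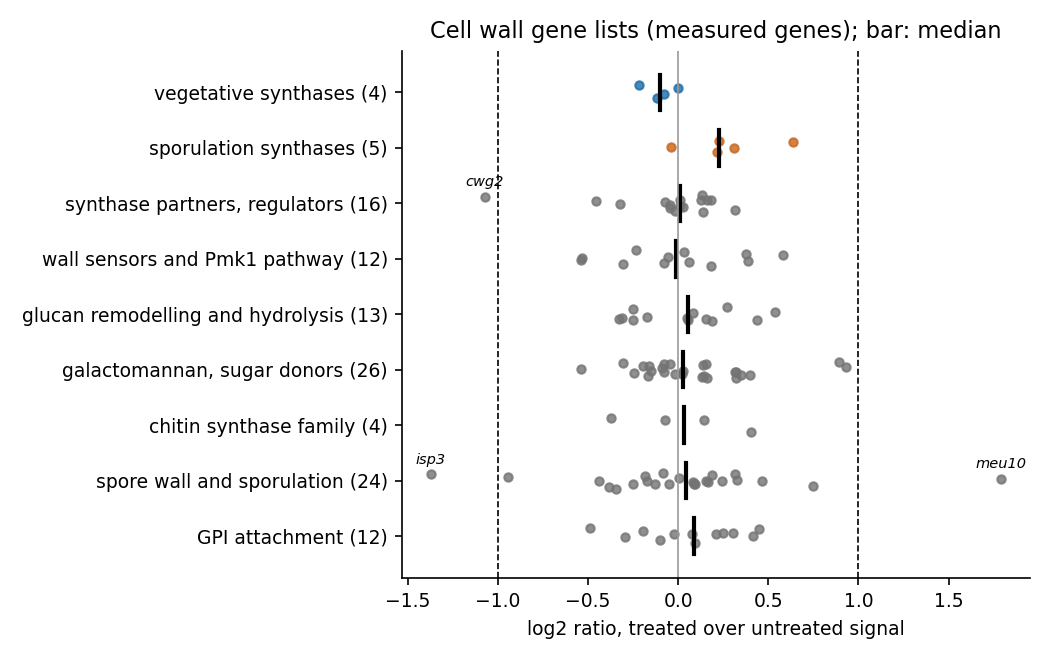
log2 ratios (treated over untreated) of the vegetative and sporulation glucan synthase genes and of the measured genes of each cell wall list (numbers in brackets), with the median as a black bar and 2-fold as dashed lines. The 3 listed genes past 2-fold are named, and the medians of all lists lie close to 0.

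A list of spore wall and sporulation genes was read beside the sporulation synthases. Its genes are not all particular to sporulating cells. In untreated log-phase cells spo20, spo14 and ste11 had signals of 2348, 1398 and 1078. The median and counts below cover such genes as well. In that list 1 of 24 measured genes was at least 2-fold higher and 1 at least 2-fold lower, against 2.25% and 2.04% of all measured genes, and the median log2 ratio was 0.04. The summed signal of the list was 13437 untreated and 13467 treated, but 75.9% and 76.0% of it came from the 6 genes with an untreated signal of at least 1000. The sum thus says little of the dim genes. Both genes past 2-fold were dim. The spore wall gene meu10 had signals of 21.8 and 75.4, or 3.46-fold higher, and the spore coat gene isp3 had 31.2 and 12.1, or 2.59-fold lower, and was not past 2-fold with 16 added to each signal in place of the background level. Signals were under 100 on both arrays for 11 of the 24, among them mei4, the transcription factor of mid-meiosis, with 25.6 and 24.7. The RNA-binding protein gene mei2, which drives entry into meiosis, had a log2 ratio of −0.94. In this list 13 genes had ratios above 0 and 11 below, and among the sporulation synthases 4 were above 0 and mok11 below. The part of any sporulating cells in the synthase ratios was not tested. In bulk RNA, a change in the number of such cells and a change in RNA per cell cannot be told apart.

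Across the processing settings, the 9 ratios moved little. The largest shift of any synthase gene was 0.07, under quantile normalization, and the log2 ratio of mok13 stayed between 0.62 and 0.67. The vegetative median lay between −0.10 and −0.04, and the sporulation median between 0.21 and 0.27. Thus mok13 had the highest ratio of the synthase genes, below 2-fold, under each of these settings.

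**Figure D5:**
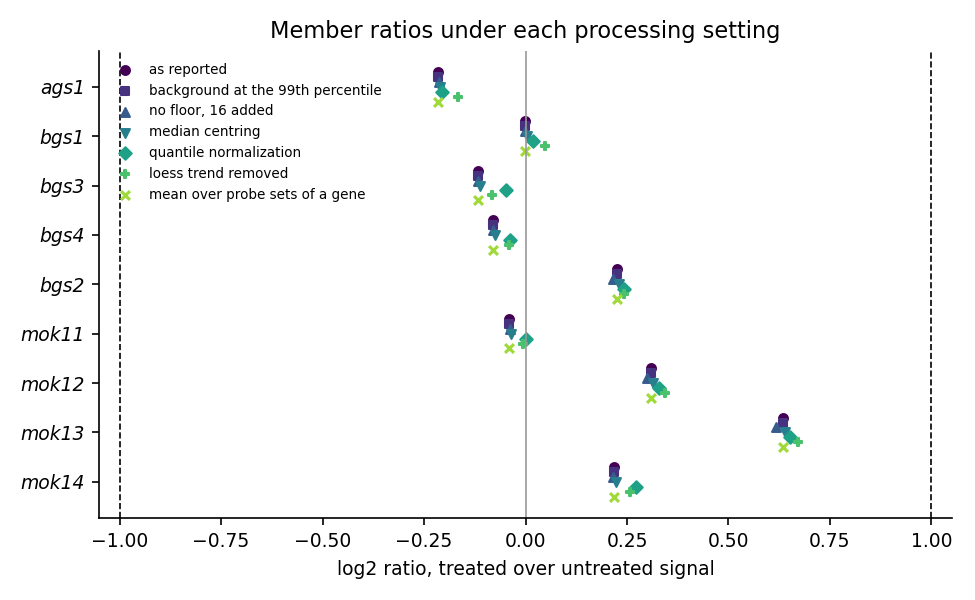
log2 ratio (treated over untreated) of each glucan synthase gene as reported and under each of the other processing settings (symbols), with 2-fold as dashed lines. Symbols of a gene cluster tightly, with shifts of at most 0.07, and bgs1 is the gene whose symbols lie on both sides of 0.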

How the data were processed

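The authors deposited 1 linear intensity per probe set and array. Per the submitters' processing notes the program was Affymetrix Expression Console, with version and summarization method not given in the sources used here. Trimmed means (2% from each end) of 500.3 on both arrays show that each array was scaled, so ratios are relative to the rest of the array. Groups were taken from the treatment label.

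Probe sets were named through the platform annotation and updated by gene ID through RefSeq (assembly ASM294v3). That table gave names and neighbours; no coordinates are printed because no build belongs to the array values. Systematic names are written with a lower-case final c. Signals under the background level were set to it ahead of the log2 step, and the brightest probe set stood for a gene with several. Steps were run in Python 3.11.15 with pandas 2.3.3 and statsmodels 0.14.6 and were tested on simulated data.

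The members, lists and alternatives were chosen with earlier results of these data known. Named list genes were those past 2-fold and the 3 with the largest absolute log2 ratio, of which 1 is not reported here; rho1, mei4 and the neighbours were named besides, after their values were seen. Of 133 list entries, 10 symbols matched no gene of the RefSeq table. Protein and promoter sequences were not used here.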

Additional observations from a re-analysis of the deposited data

How the results depend on the processing

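Alternatives were a background level at the 99th percentile, no floor with 16 added to each signal, quantile normalization, median centring, a loess trend (span 0.3) subtracted, the mean over a gene's probe sets, and a threshold of 1.5-fold. A ratio or median counted as unmoved when it shifted by no more than 0.24, the SD of the added controls. Of 191 recomputed values 185 stayed, counting a number of genes within 1.5 times as unmoved, and 6 moved. That count says little of the synthase genes. The limit is wider than the ratios of 7 of them, so the change of sign of bgs1 counted as unmoved. The 99th percentile and the mean over probe sets shifted no synthase gene, since each has 1 probe set far above background. With no floor and 16 added, 1 sporulation list gene in place of 2 differed 2-fold, since isp3, whose signals are close in size to the added 16, had a log2 ratio of −0.75. In cwg2 the log2 ratio was −1.01 there, close to the threshold, against −1.07 as reported. At 1.5-fold, which admits more genes by construction, 1 synthase gene, mok13, was called higher, 164 of all genes were higher and 191 lower, and the lists for galactomannan and for sporulation had 2 and 4 genes past the threshold. The difference of the vegetative and sporulation medians lay between −0.32 and −0.31. No paired analysis was possible because each group has 1 array. Leaving out a replicate was not possible for the same reason, so culture-to-culture variation is unknown. The log2 ratios of 7 synthase genes were within 0.24, the SD of all added controls. Of these, ags1, mok14 and bgs2 were past 0.14, the SD of the brighter controls, but inside their range.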
